A study of Mus musculus with 2 samples.

Results

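The receptors described here are G protein-coupled receptors for hormones, neurotransmitters and metabolites that pancreatic islet cells are known or proposed to use. The list holds 36 genes, all present among the 32285 genes of each count table, 1 of them (Ppyr1) under its current symbol Npy4r. A receptor was described where it reached 3 CPM (UMI counts of a class brought to one sequencing depth) in at least 1 hormone-defined cell class of 1 library. 25 of the 36 receptors did so and 11 did not.

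Single-cell RNA was sequenced from islets of 12-week-old female C57BL/6 mice in 2 libraries. One came from mice labelled SpopβKO, with Spop deleted in beta cells, and the other from Spopfl/fl mice, which carry the floxed allele. SPOP brings substrates to a CUL3 ubiquitin ligase, and the study asked how it tunes the stress response to unfolded proteins in beta cells. Islets of both genotypes were cultured for 3 days at 10 mM glucose before dispersal and 3′ droplet capture, and the labels give neither the Cre driver nor the number of mice pooled. With 1 library per genotype there is no replicate check, so no test was made. Every 95% interval covers counting error only and every difference is one between these libraries.

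The SpopβKO library held 89977773 UMIs in 10033 barcodes and the Spopfl/fl library 82541585 UMIs in 7768, of which 8842 and 6850 passed the filters on genes and mitochondrial reads. A total of 21 barcodes occurred in both libraries. Cells were classed by their leading hormone. Ins-led cells (insulin) numbered 6867 in the SpopβKO and 3736 in the Spopfl/fl library, Gcg-led cells (glucagon) 913 and 1667, and Ppy-led cells (pancreatic polypeptide) 93 and 99. The Sst-led gate (somatostatin) kept only 4 and 6 cells, where 1 UMI equals 27.3 and 13.1 CPM. A cluster with all 5 delta-cell markers raised, of 124 and 102 cells, was therefore used as the delta-like group, a choice made after the data were seen. The beta-cell markers summed to 1507 and 905 CPM in Ins-led cells, against 331 and 273 CPM in Gcg-led cells. The alpha-cell markers summed to 5937 and 5035 CPM in Gcg-led cells, against 333 and 331 CPM in Ins-led cells. Spop read 85.5 CPM in Ins-led cells of the SpopβKO and 68.6 CPM in those of the Spopfl/fl library. A 3′ tag outside the deleted part does not check the deletion, so directions rest on the labels.

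Islet hormone release is tuned by these receptors. Receptors that couple to Gs, such as those for GLP-1, GIP and glucagon, raise cyclic AMP and amplify glucose-stimulated insulin release. Receptors that couple to Gq, among them the fatty acid receptor FFAR1 and the muscarinic M3 receptor, act through phospholipase C and calcium. Receptors that couple to Gi, such as the α2A adrenergic and somatostatin receptors, restrain secretion.

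Upstream sequences are printed for the receptors on which the comparison between libraries turns most: Glp1r, the most abundant of them in Ins-led cells, Adora1, the 1 receptor past 1.5-fold lower there, and Adrb1 and Sstr2, which were past 1.5-fold lower in Gcg-led cells. They come from the RefSeq promoter table on GRCm38.p6, which held 29 of the 36 receptors, and run 5′ to 3′ on the strand of the gene, ending before the start of the gene in RefSeq and GENCODE. Capitals mark GGGCGG (GC box), TGACG (a core of the cyclic AMP response element) and the whole element TGACGTCA, searched on both strands. The stretches lie at chr17:30901617-30901816 (Glp1r, plus strand), chr1:134235458-134235707 (Adora1, minus strand, the first of 2 starts listed), chr19:56721867-56722116 (Adrb1, plus strand) and chr11:113619077-113619326 (Sstr2, plus strand).
Glp1r: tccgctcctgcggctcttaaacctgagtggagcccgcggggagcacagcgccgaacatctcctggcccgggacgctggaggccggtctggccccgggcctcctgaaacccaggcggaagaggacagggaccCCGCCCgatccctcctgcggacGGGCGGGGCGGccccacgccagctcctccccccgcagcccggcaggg
Adora1: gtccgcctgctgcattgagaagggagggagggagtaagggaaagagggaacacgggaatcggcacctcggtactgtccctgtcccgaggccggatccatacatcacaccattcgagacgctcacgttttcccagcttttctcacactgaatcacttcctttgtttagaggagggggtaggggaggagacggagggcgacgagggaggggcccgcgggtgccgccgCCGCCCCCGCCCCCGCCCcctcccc
Adrb1: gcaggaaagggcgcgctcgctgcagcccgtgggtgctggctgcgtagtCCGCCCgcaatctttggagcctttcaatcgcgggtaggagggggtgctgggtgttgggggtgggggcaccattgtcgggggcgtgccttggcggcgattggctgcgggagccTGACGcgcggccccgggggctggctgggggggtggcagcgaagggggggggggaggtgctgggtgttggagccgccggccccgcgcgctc
Sstr2: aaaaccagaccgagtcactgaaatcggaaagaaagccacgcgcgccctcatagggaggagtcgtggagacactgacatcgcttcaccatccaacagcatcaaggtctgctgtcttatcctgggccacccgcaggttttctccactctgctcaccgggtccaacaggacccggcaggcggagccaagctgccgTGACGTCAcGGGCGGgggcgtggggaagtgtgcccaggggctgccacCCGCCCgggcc
The Glp1r stretch held 3 GC boxes, of which 2 overlap, and its GC content was 75%. The Adora1 stretch held 3 GC boxes at 64.4% GC, and the Adrb1 stretch held 1 GC box and 1 TGACG at 74.0% GC. The Sstr2 stretch held 1 whole TGACGTCA, which contains TGACG on both strands, and 2 GC boxes at 63.6% GC. Of all 32851 promoter windows of 250 bases in the table, 32.7% held a GC box, 17.8% held TGACG and 1.55% held TGACGTCA. In windows of 200 bases, the length shown for Glp1r, 24.6% held a GC box. The E-box CAGCTG, the homeodomain motif TAATTA and the TATA box TATAAA were also searched, and none of the 4 stretches held one, where 13%, 4.84% and 12.4% of all windows of 250 bases did. A match is a string of letters and not a measured site.

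Which of Ins-led and Gcg-led cells held the higher level was the same in both libraries for all of the 25 receptors but Gpr119 and Adgrl1. For Gpr119 and Adgrl1 these classes did not differ beyond counting error in the SpopβKO library. The top class among all the groups agreed less often. Of the 25 receptors, 15 had the same class at the top in both libraries: 9 in Ins-led cells, 4 in Gcg-led cells, and 1 each in Ppy-led and delta-like cells. For 8 of these 15 the top class stood apart from the next by more than counting error in both libraries.

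The incretin and glucagon receptors were highest in Ins-led cells. Glp1r (ENSMUSG00000024027, chromosome 17, 30901817 to 30940791 on mm10, plus strand), the receptor of the incretin GLP-1, was at 317 CPM in Ins-led cells of the SpopβKO library (95% interval 313 to 322, 19704 UMIs) and at 165 CPM in those of the Spopfl/fl library (161 to 169, 6745 UMIs). In Gcg-led cells Glp1r was at 29.4 and 19.3 CPM, so the Ins-led level was 10.8-fold higher in the SpopβKO and 8.53-fold higher in the Spopfl/fl library. Gipr, the receptor of the incretin GIP, was at 16.8 and 11.8 CPM in Ins-led cells, against 6.16 and 4.07 CPM in Gcg-led cells. Gcgr, the glucagon receptor, was at 9.79 and 6.09 CPM in Ins-led cells, against 1.65 and 1.00 CPM in Gcg-led cells, that is 5.93-fold and 6.08-fold higher in Ins-led cells. All of these receptors had a class order led by Ins-led cells in both libraries, but Gcgr in the SpopβKO library did not stand apart from delta-like cells.

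Of the receptors for fatty acids and lipids, FFAR1 and FFAR4 had opposite distributions. Ffar1 (ENSMUSG00000044453, chromosome 7, 30857390 to 30861564, minus strand), the long-chain fatty acid receptor of beta cells also known as GPR40, was at 56.2 CPM in Ins-led cells of the SpopβKO and 27.0 CPM in those of the Spopfl/fl library, against 5.11 and 3.57 CPM in Gcg-led cells. Ffar4 (ENSMUSG00000054200, chromosome 19, 38097071 to 38114263, plus strand), also a long-chain fatty acid receptor, was lowest in Ins-led cells, at 6.60 and 4.01 CPM. Its levels elsewhere lay close together, at 31.7 and 38.0 CPM in Gcg-led, 42.5 and 33.2 CPM in Ppy-led and 37.9 and 37.6 CPM in delta-like cells, and its top 2 classes did not differ beyond counting error in either library. The short-chain fatty acid receptors also differed from each other. Ffar2 was spread over all classes, at 26.5 and 14.1 CPM in Ins-led and 36.9 and 17.2 CPM in delta-like cells, and these classes did not stand apart. Ffar3 was at 3.53 and 1.52 CPM in Ins-led cells, with 0 and 3 UMIs in Gcg-led and none in Ppy-led or delta-like cells. Gpr119, a receptor for lipid amides that couples to Gs, was at 7.87 and 2.15 CPM in Ins-led cells and 6.76 and 4.88 CPM in Gcg-led cells.

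Receptors that couple to Gi were split between the classes. Adra2a, the α2A adrenergic receptor through which noradrenaline restrains insulin release, was at 32.9 and 31.8 CPM in Ins-led cells, against 5.56 and 5.32 CPM in Gcg-led cells. Galr1, a galanin receptor, was at 11.5 and 6.26 CPM in Ins-led cells, against 1.05 and 0.81 CPM in Gcg-led cells. The somatostatin receptors did not share a pattern. Sstr3 was at 40.0 and 25.3 CPM in Ins-led cells and still at 21.6 and 20.3 CPM in Gcg-led cells, whereas Sstr2 (ENSMUSG00000047904, chromosome 11, 113619342 to 113626028, plus strand) was at 0.32 and 0.69 CPM in Ins-led cells and 5.71 and 9.01 CPM in Gcg-led cells.

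Avpr1b (ENSMUSG00000026432, chromosome 1, 131599239 to 131612000, plus strand), the vasopressin V1b receptor, was far higher in Gcg-led than in Ins-led cells. It was at 43.4 and 41.7 CPM there, against 1.34 and 1.66 CPM in Ins-led cells, a difference of 32.5-fold in the SpopβKO and 25.1-fold in the Spopfl/fl library. Adrb1 (ENSMUSG00000035283, chromosome 19, 56722199 to 56733113, plus strand), the β1 adrenergic receptor, was at 7.21 and 15.1 CPM in Gcg-led cells, against 0.32 and 0.71 CPM in Ins-led cells, 22.4-fold and 21.4-fold higher in Gcg-led cells, with intervals that overlap those of Avpr1b. Weaker preferences for Gcg-led over Ins-led cells were seen in Vipr1, a receptor of VIP and PACAP, with 11.6 and 10.4 CPM against 6.09 and 5.14 CPM. The adenosine receptor Adora2a was at 6.31 and 7.89 CPM against 2.34 and 1.64 CPM. In the SpopβKO library neither stood apart from Ppy-led cells, where Adora2a was highest among the hormone classes. Non-endocrine barcodes with each hormone under 1% of UMIs held Adora2a at 305% and 239% of the Ins-led level, against 270% and 481% in Gcg-led cells. The calcium-sensing receptor Casr was at 8.86 and 11.02 CPM in Gcg-led cells, against 5.99 and 4.48 CPM in Ins-led cells.

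Among the remaining receptors, Chrm3, the muscarinic M3 receptor that carries the cholinergic signal to beta cells, was at 29.0 and 19.8 CPM in Ins-led and 21.6 and 23.1 CPM in Ppy-led cells, against 5.56 and 3.88 CPM in Gcg-led cells. P2ry1, a receptor for ADP, and Gpr158 were highest in Ins-led cells, P2ry1 at 10.7 and 12.2 CPM and Gpr158 at 30.1 and 29.4 CPM. For P2ry1, Ins-led and delta-like cells did not differ beyond counting error in either library. The adhesion receptor Adgrg1 was nearly even across classes. Also known as GPR56, it was at 71.6 and 76.0 CPM in Ins-led, 64.4 and 74.4 CPM in Gcg-led, 64.9 and 81.5 CPM in Ppy-led and 64.3 and 85.9 CPM in delta-like cells, and was the most abundant receptor in Gcg-led cells. Lpar1, a receptor for lysophosphatidic acid, was highest among the hormone classes in Ppy-led cells, at 9.62 and 4.02 CPM on 12 and 8 UMIs, and had none in delta-like cells. Non-endocrine barcodes with each hormone under 1% of UMIs were higher still, with Lpar1 at 29.5 and 6.52 CPM. CPM from 3′ tags are not divided by transcript length, so levels of different genes are compared here as RNA molecules counted.

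**Figure D1:**
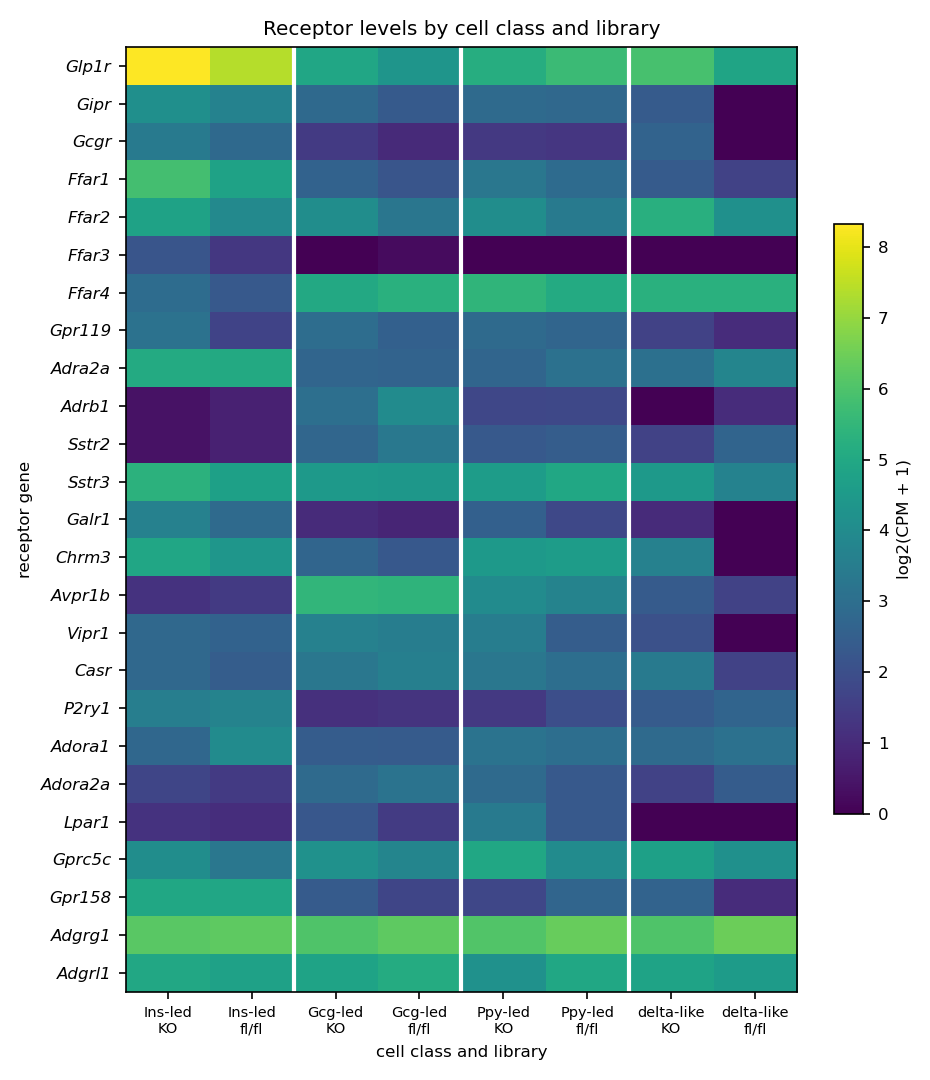
Level of the 25 receptors, as log2(CPM + 1), in Ins-led, Gcg-led, Ppy-led and delta-like cells, with the SpopβKO library left of the Spopfl/fl library in each class. Glp1r in Ins-led cells is the brightest row, at 317 and 165 CPM, Avpr1b and Adrb1 are brightest in Gcg-led cells, and Adgrg1 is nearly even.

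Free RNA and doublets place some RNA of one cell type in barcodes of another, so levels in the lower class were set beside markers measured the same way. Gcg-led cells held 4.63% of the Ins1 and 5.37% of the Ins2 level of Ins-led cells in the SpopβKO library, and 2.32% and 2.35% in the Spopfl/fl library. For the beta-cell markers Mafa, Slc2a2 and G6pc2 the shares were 6.94%, 5.88% and 7.23% in the SpopβKO and 7.31%, 7.49% and 9.22% in the Spopfl/fl library. Glp1r, at 9.28% and 11.7%, and Ffar1, at 9.09% and 13.2%, lay a little above these markers, while Chrm3, at 19.1% and 19.6%, and Gipr, at 36.7% and 34.5%, lay well above them. In the other direction, Ins-led cells held 2.21% and 2.69% of the Gcg level of Gcg-led cells, and 3.75% to 5.36% and 4.04% to 5.32% for the alpha-cell markers Irx1, Irx2 and Slc38a5. Avpr1b, at 3.08% and 3.99%, and Adrb1, at 4.47% and 4.68%, were within or below the span of those markers. Most of their UMIs in Ins-led cells lay in 1 expression cluster, cluster 8, which also held 150 Gcg-led cells of the SpopβKO and 355 of the Spopfl/fl library. Cluster 8 held 49 of the 83 Avpr1b UMIs of Ins-led cells in the SpopβKO and 46 of the 68 in the Spopfl/fl library, and 17 of 20 and 23 of 29 for Adrb1. Which cells these UMIs came from was not tested. Sstr2, at 5.64% and 7.60%, lay slightly above, and Ffar4, at 20.8% and 10.6%, clearly above.

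**Figure D2:**
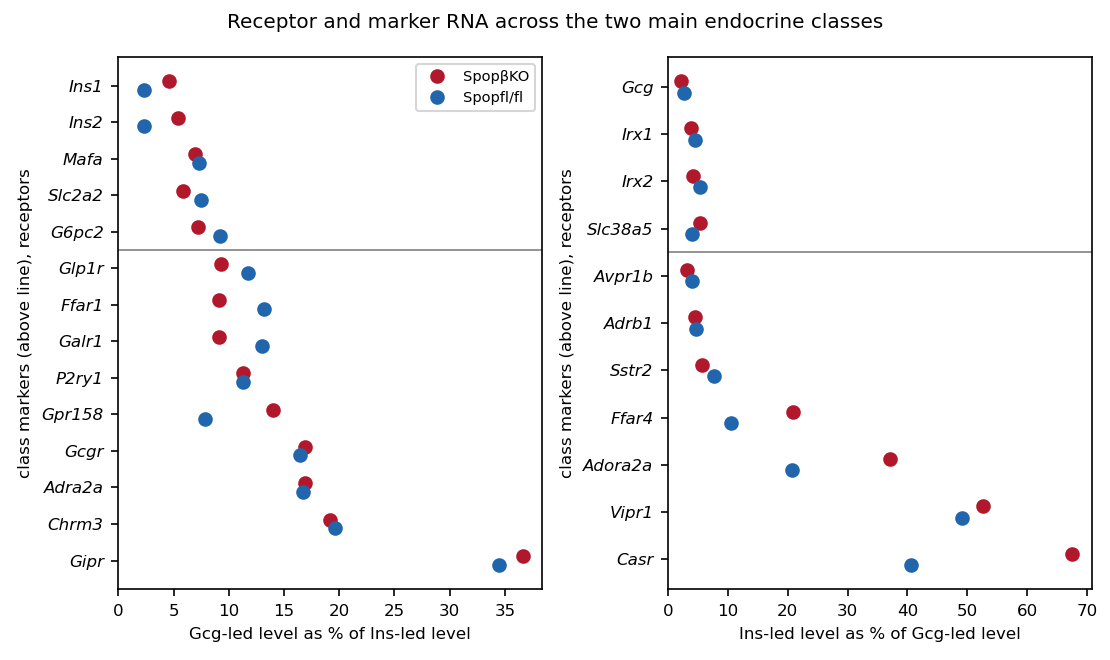
Level in the class with less RNA as a percentage of the level in the class with more, for class markers (above the line) and receptors (below it), in the SpopβKO library (red) and the Spopfl/fl library (blue). Avpr1b and Adrb1 in Ins-led cells lie among the alpha-cell markers, whereas Gipr and Chrm3 in Gcg-led cells lie to the right of the beta-cell markers.

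Shares of cells with a UMI gave the same order after each cell was thinned to 3000 UMIs, with 1978 and 793 Ins-led and 45 and 88 Gcg-led cells left out as too shallow. Glp1r was seen in 42.0% of Ins-led cells of the SpopβKO library (95% Clopper-Pearson interval 40.6% to 43.4%) and in 26.5% of those of the Spopfl/fl library (24.9% to 28.1%), against 6.22% and 4.37% of Gcg-led cells. Without thinning the Ins-led shares were 55.9% and 47.4%, at medians of 7658 and 8858 UMIs. Non-endocrine barcodes with each hormone under 1% of UMIs gave a Glp1r background of 4% (3 of 75 barcodes, 0.83% to 11.2%) and 1.82% (1 of 55, 0.05% to 9.72%), at medians of 12670 and 13225 UMIs before thinning. The Gcg-led shares of Glp1r lie inside those intervals and are not told apart from background by this measure. Ffar1 was seen in 10.4% and 5.33% of Ins-led cells, and Avpr1b in 12.7% and 10.1% of Gcg-led cells. After thinning, 0 of these 75 and 0 of these 55 non-endocrine barcodes held a Ffar1 or Avpr1b UMI, although before thinning all 75 and 60 barcodes of this kind held 2 and 1 Ffar1 UMIs and 0 and 1 Avpr1b UMIs. A count of 0 allows shares of up to 4% and 5.45% as 3 barcodes of the total, or 4.80% and 6.49% as Clopper-Pearson upper limits. The Ffar1 share in the Spopfl/fl library did not exceed either limit. Adrb1 was seen in 2.65% of Gcg-led cells of the SpopβKO and 5.003% of those of the Spopfl/fl library. Adora1 was seen in 1.27% and 4.38% of Ins-led cells. For these receptors the background, from 1 and 0 barcodes for Adrb1 and 0 and 0 for Adora1, has upper limits above the shares, so the shares alone do not show expression.

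In the comparison of libraries, most receptors of Ins-led cells had a higher level in the SpopβKO library. Of the 19 receptors with a mean of at least 3 CPM in Ins-led cells, 9 were past 1.5-fold higher with an interval excluding no difference and 1 was past 1.5-fold lower. Over all 11002 genes that passed the same limit, 10.1% were past 1.5-fold higher and 4.31% lower, 14.4% in all. The median log2 ratio of SpopβKO over Spopfl/fl was 0.55 over the 19 receptors and −0.03 over all genes. These counts describe the receptors that passed the limit, and the other 17 on the list did not.

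Among the 19 receptors that passed the limit, the largest log2 ratio belonged to Gpr119, at 1.87 (1.54 to 2.22), from 489 UMIs in the SpopβKO and 88 in the Spopfl/fl library. Its level was 7.87 CPM in the SpopβKO and 2.15 CPM in the Spopfl/fl library. Gpr119 thus passed the mean limit of 3 CPM only through the library where it was high, and its rank depends on that limit. Ffar1 had a log2 ratio of 1.06 (0.96 to 1.16), Glp1r 0.94 (0.90 to 0.98) and Ffar2 0.91 (0.77 to 1.05). Galr1 followed with 0.87 (0.67 to 1.09), Gprc5c, an orphan receptor of class C, with 0.86 (0.69 to 1.04), Ffar4 with 0.72 (0.45 to 0.99), Gcgr with 0.68 (0.47 to 0.90) and Sstr3 with 0.66 (0.55 to 0.76). The higher set therefore spans receptors that couple to Gs (Glp1r, Gcgr, Gpr119), to Gq (Ffar1) and to Gi (Sstr3, Galr1). Gipr and Chrm3 were higher by less than 1.5-fold, with log2 ratios of 0.51 (0.35 to 0.67) and 0.55 (0.43 to 0.67). Adra2a (0.05, −0.05 to 0.15) and Gpr158 (0.03, −0.08 to 0.14) had intervals that include no difference. The remaining 5, Casr, Vipr1, Adgrl1, Adgrg1 and P2ry1, ranged from 0.42 to −0.20.

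Adora1 (ENSMUSG00000042429, chromosome 1, 134199223 to 134235431, minus strand), the adenosine A1 receptor, which couples to Gi, went the other way. It was at 5.81 CPM (5.23 to 6.45, 361 UMIs) in Ins-led cells of the SpopβKO library and at 15.05 CPM (13.9 to 16.3, 615 UMIs) in those of the Spopfl/fl library, a log2 ratio of −1.37 (−1.56 to −1.18). In Gcg-led cells Adora1 stood at 4.36 and 4.26 CPM, and its log2 ratio was 0.03 (−0.65 to 0.68). The gene overlaps Mybph on the opposite strand, and whether the counting used strand is not given in the sources used here.

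**Figure D3:**
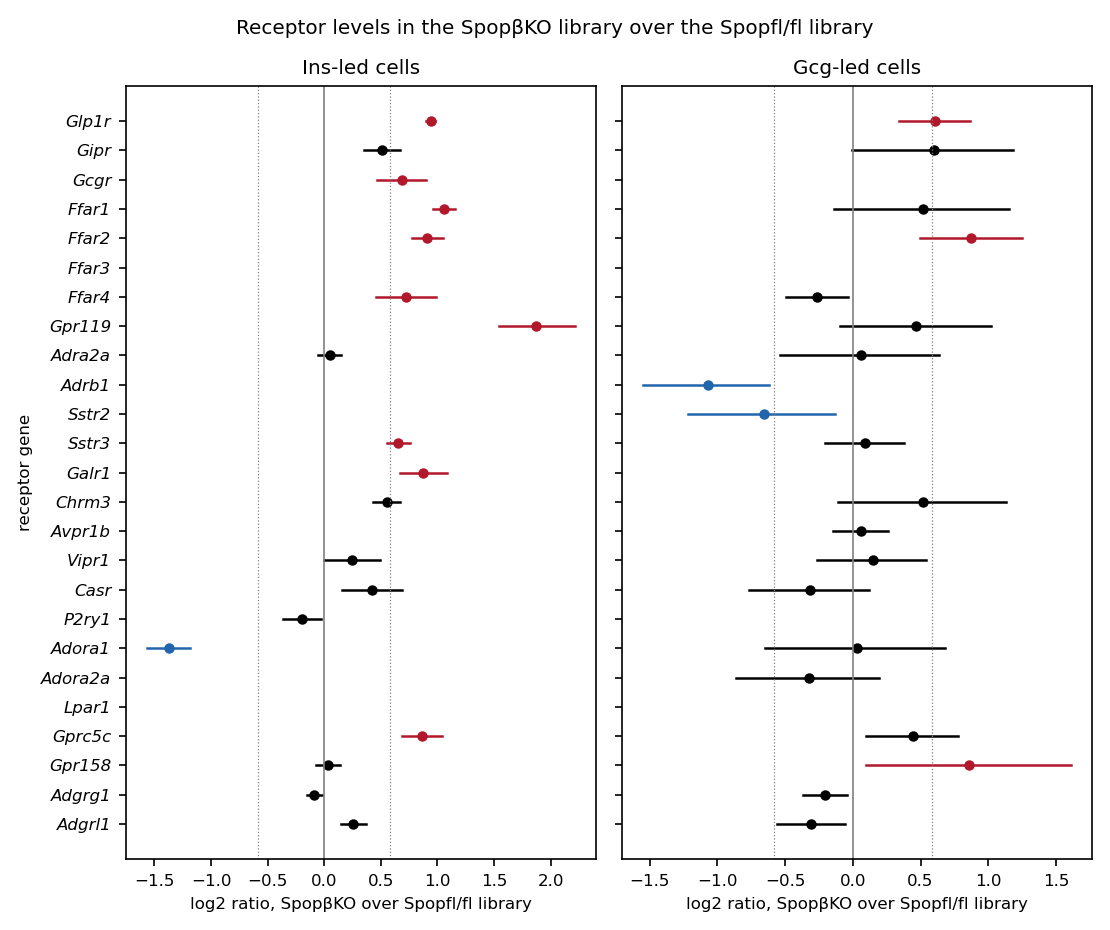
Log2 ratio of each receptor in the SpopβKO library over the Spopfl/fl library, with its 95% counting interval, in Ins-led (left) and Gcg-led cells (right), for receptors with a mean of at least 3 CPM in the class. Red and blue mark ratios past 1.5-fold (dotted lines) with an interval excluding 0. In Ins-led cells 9 receptors lie to the right and Adora1 to the left, and in Gcg-led cells Adrb1 and Sstr2 lie to the left.

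The libraries differed in the clusters that made up their Ins-led class, and Glp1r and Ffar1 also differed in level between clusters. Expression clusters 7, 2 and 4 held 18.5%, 18.1% and 15.5% of Ins-led cells of the SpopβKO library, against 4.36%, 0.67% and 7.33% of those of the Spopfl/fl library. Clusters 11, 3 and 6 held 8.04%, 3.06% and 2.37% of the SpopβKO and 17.8%, 17.7% and 15.04% of the Spopfl/fl cells. Cluster 7 was the one with all 8 beta-cell markers raised, and Ffar1 was among its 10 leading genes, so its high Ffar1 level is a property of the clustering. Cluster 11 had Hspa1b and Hspa1a, heat-shock genes, among its leading genes. Unscaled Glp1r was at 615 CPM in cluster 7 of the SpopβKO and 656 CPM in that of the Spopfl/fl library, against 85.4 and 66.2 CPM in cluster 11. Clustering used the same counts as the levels, and how far cluster makeup enters the library ratios was not tested beyond the ratios that follow.

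Within the 10 clusters with at least 100 Ins-led cells of both libraries, the Glp1r difference was smaller and the Ffar1 difference was not held. Glp1r had a log2 ratio above 0 in 9 of 10 clusters with a median of 0.32, from −0.10 in cluster 7 to 0.75 in cluster 0, and passed 1.5-fold in cluster 0 only. Ffar1 had a median of −0.16 and was above 0 in 4 of 10, at −0.51 (−0.64 to −0.38) in cluster 7 and 0.79 (0.30 to 1.30) in cluster 8. Gcgr was above 0 in 7 of the 9 clusters where it passed the limit (median 0.82), Ffar2 in 7 of 9 (0.65), Gprc5c in 7 of 8 (0.51) and Sstr3 in 9 of 10 (0.16). The interval lay above 0 in only 2 of these clusters for Gcgr, 3 for Ffar2, 4 for Gprc5c and 2 for Sstr3. The Gcgr ratios in clusters 0 and 1 rested on 2 Spopfl/fl UMIs each, and Gcgr was at −0.65 in cluster 3 and −0.10 in cluster 7. Gpr119 was above 0 in all 3 clusters where it passed the limit with enough UMIs for a ratio, at 1.19 in cluster 7, where it was at 18.1 and 7.91 CPM. In clusters 3 and 8 its Spopfl/fl level, at 2.43 and 1.79 CPM, was under 3 CPM. Under the limit, Gpr119 was at −1.67 (1 and 14 UMIs) in cluster 6 and −0.21 (4 and 6) in cluster 11. It was at 0.71 (5 and 1 UMIs) in cluster 4 and had 5 and 0 UMIs in cluster 1. Adora1 was below 0 in all 9 clusters that could be compared, with a median of −0.98 and past 1.5-fold lower in 5, including cluster 7 at 5.72 and 17.4 CPM. P2ry1 and Gpr158, nearly level over the class as a whole, were below 0 in 9 of 10 clusters each, with medians of −0.57 and −0.24.

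**Figure D4:**
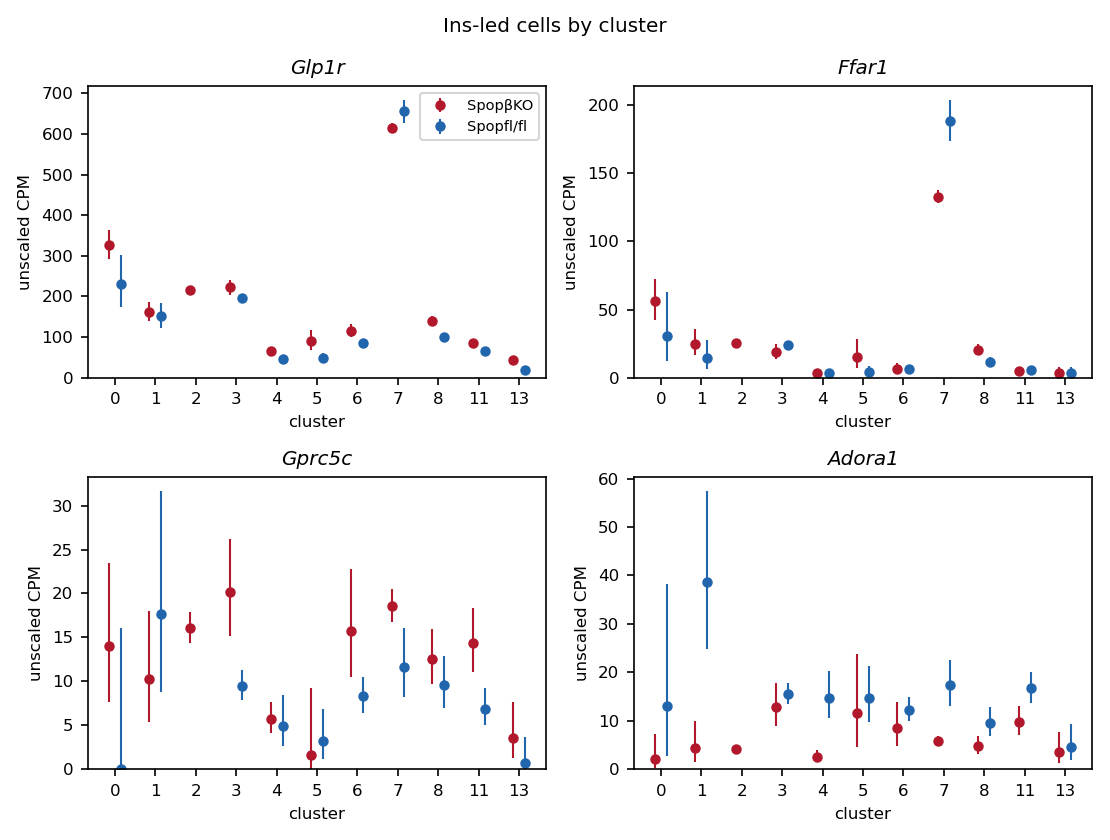
Unscaled CPM of Glp1r, Ffar1, Gprc5c and Adora1 in Ins-led cells by cluster, with 95% counting intervals, for the SpopβKO (red) and Spopfl/fl library (blue), where a library had at least 100 such cells. Glp1r and Ffar1 differ more between clusters than between libraries, and Adora1 lies lower in the SpopβKO library in each cluster that holds both.

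Other cell types' markers in Ins-led cells also differed between the libraries. The 8 myeloid markers summed to 71.3 CPM in the SpopβKO and 14.6 CPM in the Spopfl/fl library, of which C1qa gave 51.3 and 5.85 CPM, and the 9 acinar markers summed to 36.3 and 5.94 CPM, of which Cela1 gave 33.6 and 1.79 CPM. Only 2 of the 9 acinar markers were higher in the SpopβKO library. Endothelial markers summed to 11.2 and 7.14 CPM and mesenchymal markers to 3.46 and 0.54 CPM. Lymphocyte markers went the other way, with sums of 6.31 and 20.9 CPM, of which Cd79a gave 6.18 and 20.9 CPM. The part of these markers in the receptor ratios was not tested.

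In Gcg-led cells fewer receptors were past 1.5-fold, and the receptors past 1.5-fold lower were higher in those cells than in Ins-led cells. Sstr2 did not stand apart from Ppy-led cells in the SpopβKO or from delta-like cells in the Spopfl/fl library. Adrb1 did not stand apart from Ppy-led cells in the SpopβKO library. Gcg-led cells held fewer UMIs, 6958342 and 16443797 against 67558347 and 43601519 in Ins-led cells, which widens their intervals. Of 20 receptors with a mean of at least 3 CPM, 3 were past 1.5-fold higher (Glp1r, Ffar2, Gpr158) and 2 lower (Adrb1, Sstr2), where 1.69% of all 11161 genes were higher and 1.93% lower, 3.62% in all. Adrb1 was at 7.21 CPM (5.32 to 9.56, 48 UMIs) in the SpopβKO library and at 15.1 CPM (13.3 to 17.2, 242 UMIs) in the Spopfl/fl library, a log2 ratio of −1.07 (−1.55 to −0.62). It was past 1.5-fold lower within each of the 3 clusters with at least 100 Gcg-led cells of both libraries, from −0.64 to −2.65. Sstr2, through which somatostatin restrains glucagon release, had a log2 ratio of −0.66 (−1.21 to −0.13) on 38 and 144 UMIs, and was below 0 in 3 of 3 clusters, with no cluster interval excluding 0. Avpr1b (0.06, −0.15 to 0.26) and Sstr3 (0.09, −0.20 to 0.38) had intervals that include no difference, and Ffar4 was −0.26 (−0.49 to −0.03).

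Glp1r and Ffar2 were higher in the SpopβKO library in Gcg-led as in Ins-led cells, with log2 ratios in Gcg-led cells of 0.61 (0.34 to 0.87) and 0.87 (0.49 to 1.25). Glp1r was above 0 in 3 of 3 Gcg-led clusters with a median of 0.93. Insulin RNA in Gcg-led cells was higher too, with Ins2 at 7646 CPM in the SpopβKO and 3192 CPM in the Spopfl/fl library. Ins1 was at 2272 and 363 CPM there, and beta-cell markers at 331 and 273 CPM. Gpr158, at 4.21 and 2.32 CPM, rested on 28 and 37 UMIs and passed the mean limit of 3 CPM only through its SpopβKO level. The part of beta-cell RNA in these ratios was not tested.

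The small classes gave few differences beyond counting error. In Ppy-led cells, Gprc5c was at 29.6 CPM in the SpopβKO and 15.1 CPM in the Spopfl/fl library, a log2 ratio of 0.97 (0.24 to 1.72), and Adgrl1, the receptor latrophilin 1, at 17.6 and 30.2 CPM, a ratio of −0.78 (−1.55 to −0.05). They were the only 2 of 21 receptors past 1.5-fold there, where 2.44% of all genes were higher and 2.73% lower, 5.17% in all. In delta-like cells 3 of 17 were past 1.5-fold higher, where 3.28% of all genes were higher and 2.64% lower, 5.92% in all. These were Glp1r at 59.0 and 27.9 CPM, Ffar2 at 36.9 and 17.2 CPM, and Chrm3 with 11 UMIs in the SpopβKO library and 0 in the Spopfl/fl library. With the 0 set to a floor of 3 counts over the group, Chrm3 was 3.60-fold higher, a value that leaves out the counting error of the 11 UMIs. Chrm3 therefore passed the mean limit through the SpopβKO library alone. Of the delta-like cells, 50 of 124 and 11 of 102 were also Ins-led by the hormone gate, and Ins2 stood at 15061 and 24858 CPM in them.

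The 11 receptors under 3 CPM were Sstr1, Chrm4, Npy1r, Npy4r, Adcyap1r1, Crhr1, Crhr2, Gprc5b, Cckar, Drd2 and Ptger3. Adcyap1r1, a PACAP receptor, had no UMI in any of the 4 hormone classes, and Cckar, the cholecystokinin A receptor, had 1 in all. Just under the limit, Gprc5b reached 2.55 CPM in Gcg-led cells of the SpopβKO library, and just above it Ffar3 reached 3.53 CPM. Ptger3, the prostaglandin EP3 receptor, was at 1.58 CPM (98 UMIs) in Ins-led cells of the SpopβKO library and 0.17 CPM (7 UMIs) in those of the Spopfl/fl library, a log2 ratio of 3.20 (2.11 to 4.56).

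Genes that carry the signal behind these receptors were described from 95 listed genes found in the tables. In Ins-led cells 75 passed the limit, 17 past 1.5-fold higher and 2 lower in the SpopβKO library, against 10.1% and 4.31% of all genes, and their median log2 ratio was 0.14. Among the 17, Pde4a, Pde4d and Rgs10 passed the mean limit of 3 CPM only through the SpopβKO library, where they were high. Of the G protein subunits, 4 of 18 were higher and none lower. Gnai1, an inhibitory α subunit, was at 37.9 CPM in the SpopβKO and 10.3 CPM in the Spopfl/fl library, a log2 ratio of 1.88 (1.73 to 2.03), and the γ subunit Gng2 at 18.5 and 9.17 CPM. Gnas, the stimulatory α subunit, was at 1265 and 1196 CPM.

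Neither of the 2 adenylyl cyclases that passed was past 1.5-fold, while 3 of 8 phosphodiesterases were higher, among them Pde10a at 49.97 and 30.6 CPM. The others, Pde4a at 4.30 and 1.79 CPM and Pde4d at 7.54 and 2.62 CPM, passed the mean limit of 3 CPM only through their SpopβKO level. Of the PKA, EPAC and CREB genes 3 of 17 were higher and 1 lower. Pkib, an inhibitor of protein kinase A, was at 16.8 and 6.58 CPM, its regulatory subunit Prkar2b at 39.7 and 25.2 CPM, and Crtc2, a coactivator of CREB, at 12.7 and 20.1 CPM, a log2 ratio of −0.66 (−0.81 to −0.52). On the Gq side, 2 of 11 genes were higher, with Itpr1, an IP3 receptor, at 64.9 and 29.3 CPM. Of the genes that end receptor signals, 4 of 15 were higher and 1 lower, led by Rgs4, which speeds GTP hydrolysis by Gα, at 21.9 and 3.40 CPM (log2 ratio 2.69, 2.43 to 2.95), and Grk5, a receptor kinase, at 20.8 and 10.98 CPM. Rgs10, among the 4 higher, was at 5.67 and 1.13 CPM. Of the 4 receptor-associated genes that passed, 1 was higher, Ramp1, at 8.97 and 5.70 CPM, named after its value was seen. In Gcg-led cells 2 of 78 passed genes of the list were past 1.5-fold higher and none lower, against 1.69% and 1.93% of all genes, a share near that of all genes.

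Of 17 listed genes for ligands made in islets, or for enzymes that make them, 9 passed the limit in Ins-led cells, 5 of them past 1.5-fold higher and none lower, against 10.1% and 4.31% of all genes. Enpp2, the enzyme autotaxin that makes lysophosphatidic acid, the ligand of LPAR1, was at 534 CPM in the SpopβKO and 58.8 CPM in the Spopfl/fl library, a log2 ratio of 3.18 (3.12 to 3.24). Ddc, the decarboxylase that makes dopamine and serotonin, was at 218 and 49.4 CPM, a log2 ratio of 2.14 (2.07 to 2.21). Lpar1 itself was at 1.34 and 1.13 CPM in Ins-led cells, and the dopamine receptor Drd2 had 2 and 0 UMIs there.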

How the data were processed

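The authors deposited unnormalised UMI counts for every gene and barcode, which Cell Ranger 6.0.0 produced, per the file headers. The submitters' processing notes name the mm10 build, R 4.1.1 and Seurat 4.1.0, and further upstream steps are not given in the sources used here. Barcodes needed at least 500 genes and no more than 15% mitochondrial UMIs. A class needed a leading hormone of at least 3 times the next of the 4 and at least 1% of UMIs. Barcodes with UMIs of at least 3 markers of 1 of 5 non-endocrine lists were set apart. Mixed and hormone-poor barcodes were not analysed here, and doublets were not removed beyond this. Counts were summed per class and library and scaled with trimmed mean of M values (TMM) factors over all class sums, computed as edgeR does. Counts have exact Poisson, ratios exact conditional and shares Clopper-Pearson 95% intervals. Clusters came from scanpy 1.11.5 (2000 variable genes, 30 components, 15 neighbours, Leiden resolution 1). Python 3.11.15 was used with pandas 2.3.3, scipy 1.17.1, matplotlib 3.10.9 and numpy 2.4.6. The functions were tested on simulated data. A receptor was named if it reached 3 CPM. Of each signalling group, up to 2 genes higher and 2 lower were named, ranked by the bound of the interval closest to 0, among genes past 1.5-fold at a mean of 10 CPM or more. The receptors, gene lists and markers were chosen with earlier results of these data known. Positions are from GENCODE M21 on mm10, matched by identifier for all 36 receptors.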

Additional observations from a re-analysis of the deposited data

Results flagged for a closer look

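Ffar4 differed between the libraries in opposite directions in the main classes, with a log2 ratio of 0.72 in Ins-led cells and −0.26 in Gcg-led cells, both with counting intervals excluding 0. Adgrl1 did likewise, with 0.26 in Ins-led cells against −0.31 in Gcg-led and −0.78 in Ppy-led cells. The difference between classes was not tested, since there was 1 library per genotype.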

How the results depend on the processing

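Ratios of receptors between the libraries were recomputed under other scaling, gates and cell filters (mitochondrial limit of 10%, at least 1000 genes, a leading hormone only the largest, at least 10 times the next or at least 5% of UMIs, hormones left out of the total, each cell weighted equally). Added after the data were seen were cells with at least 5000 UMIs, and leaving out clusters 0, 1, 5 and 13, which had few UMIs or acinar genes. None of these reversed a called ratio, but some took one under 1.5-fold. With each cell weighted equally the Ins-led log2 ratios were 0.46 for Ffar4, 0.51 for Sstr3 and 0.54 for Gprc5c. Ffar4 was also at 0.51 with a leading hormone only the largest and at 0.51 with one of at least 5% of UMIs. Adgrl1 in Ppy-led cells was −0.52 with a leading hormone only the largest, Sstr2 in Gcg-led cells −0.53 with one at least 10 times the next, and Glp1r in Gcg-led cells 0.58 without scaling. Of all ratios, 11 moved with a leading hormone of at least 5% of UMIs and 9 with each cell weighted equally. The count of receptors past 1.5-fold in Gcg-led cells, 5, became 8 with each cell weighted equally, 3 where the mean limit was 10 CPM, and 1 at a fold limit of 2. The Ins-led count of 10 became 6 with the mean limit at 10 CPM and 3 at a fold limit of 2, and the signalling count of 19 became 9 at a fold limit of 2.

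The Ins-led results did change within clusters, where fewer UMIs widen the intervals. The receptor count was 1 in cluster 0, 2 in cluster 1, 4 in clusters 3, 4 and 7, 3 in cluster 5, 1 in clusters 6 and 13, and 6 in clusters 8 and 11. The signalling count was 10 in clusters 0 and 7, 12 in clusters 1 and 8, 6 in cluster 3 and 3 in cluster 6. The median log2 ratio, 0.55 over the class, was 0.035 in cluster 3, −0.34 in cluster 5, −0.10 in cluster 7, −0.0061 in cluster 11 and −0.49 in cluster 13. The log2 ratios that reversed were −0.40, −0.14, −0.18, −0.51, −0.43 and −0.50 for Ffar1 in clusters 3, 4, 6, 7, 11 and 13, −1.39, −1.06 and −0.15 for Ffar4 in clusters 0, 4 and 8, −0.24 and −0.077 for Ffar2 in clusters 0 and 6, and −0.65 and −0.10 for Gcgr in clusters 3 and 7. Single reversals were −0.038 for Sstr3 in cluster 0, −0.74 for Gprc5c in cluster 1, −0.51 for Galr1 in cluster 5 and −0.10 for Glp1r in cluster 7. In Gcg-led cells, compared within clusters after the data were seen, the count was 3 in clusters 8 and 9. The cause was not tested. No paired analysis was possible because each genotype had 1 library, so leaving out a replicate was not possible either. Depth limits the Ppy-led and delta-like classes most, where most receptors rest on few UMIs.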
